A study of Mus musculus with 6 samples.

Results

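The genes described here encode enzymes that oxidise, conjugate or hydrolyse foreign and endogenous small molecules: cytochromes P450 of families 1 to 4 (Cyp), glutathione S-transferases (Gst), aldehyde dehydrogenases (Aldh), UDP-glucuronosyltransferases (Ugt), sulfotransferases (Sult), carboxylesterases (Ces), the monoamine oxidases Maoa and Maob, and the epoxide hydrolases Ephx1 and Ephx2. Members were chosen by gene symbol among probe sets annotated with exactly 1 symbol, which gave 169 of 34945 such probe sets and 130 of 18193 genes. Por, the P450 reductase, was in the rule but is named by 0 probe sets of the annotation used. Another 12 probe sets carried a member's symbol beside others, 3 of them for the shared Ugt1a locus, and were not used. Expression was measured on Affymetrix mouse arrays in 344SQ, a murine lung cancer line grown in serum-containing medium, with 3 arrays of cells carrying a control short hairpin RNA (shRNA) and 3 arrays of cells carrying an shRNA against Pik3ca, labelled PIK3CA knockdown. Pik3ca encodes the p110-alpha catalytic subunit of phosphoinositide 3-kinase, and the design addresses how transcript levels differ after its knockdown. Vectors were introduced by lipid transfection in a cell line that both groups share. The labels do not say whether the cells were pools or clones or whether replicates were separate cultures, so the p-values cover no more than the spread among these 6 arrays, part or all of which may be technical.

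Metabolism of small molecules is usually described as successive steps. In the first, P450 enzymes of the endoplasmic reticulum insert oxygen into a substrate, and oxidases, dehydrogenases and hydrolases modify or open reactive groups. In the second, transferases attach glutathione, glucuronic acid or sulfate, which makes the product more soluble, and membrane pumps then export it. The aryl hydrocarbon receptor, the xenobiotic nuclear receptors and NRF2 are the best known transcriptional regulators of these genes, which are most abundant in liver, intestine and airway epithelium.

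Intensities are linear and carry no detection calls. A positive change means a higher value in PIK3CA shRNA cells, in units of log2(intensity + 16), where the pseudocount of 16 lowers the change of dim genes. Each gene is represented by its brightest probe set with 1 symbol, and a gene was called when limma's adjusted p over all 18193 genes was under 0.05. Pik3ca itself read 2450.5, 2324 and 2364 on the control arrays and 1249, 1237 and 1220.1 on the PIK3CA shRNA arrays. The groups did not overlap, and the knockdown arrays held 51.9% of the control intensity (limma adjusted p = 0.000762). Median intensities of the arrays lay between 134.1 and 134.7, and precision is limited by having 3 arrays a group.

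Epithelial markers were read at mixed levels. Of 12, 8 were above the median brightness of all genes, among them Cdh1, Krt8 and Krt18 with control means of 11344, 11903 and 13910, while Esrp1 (4.53), Cldn3 (18.8) and Cldn4 (82.2) were under the array median. In limma 1 of the 12 rose (8.33%), Ocln from 428 to 868 in mean intensity, and 0 fell (1 and 3 at an unadjusted p under 0.05). Of all genes, 5.88% rose and 5.62% fell. The median change of the 12 was -0.03. Their summed intensity was 53595 to 56626 in control and 53632 to 54148 in PIK3CA shRNA cells. Lung-specific genes were mostly dim in these cells. The surfactant gene Sftpc had a control mean of 94.2, the lung factor gene Nkx2-1 116 and the club cell gene Scgb1a1 24.0, all under the array median, while the surfactant gene Sftpb read 1223. Of 9 club and alveolar markers, 0 were higher and 0 lower in limma (0 and 0 at an unadjusted p under 0.05).

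More members were higher than lower in PIK3CA shRNA cells, with 104 not called. Of 130 member genes, 23 rose (17.7%) and 3 fell (2.31%), where 5.88% of all genes rose and 5.62% fell (11.5% in either direction). At an unadjusted p under 0.05, 30 members were higher and 6 lower, where 12.7% of all genes were higher and 13.2% lower (25.9% in either direction). In 33 members every PIK3CA shRNA array lay above every control array and in 8 below, where 16.1% and 17% of all genes did so (33.1% in either direction). The members' median change was 0.11 on the log2 scale and that of all genes was -0.01. In 10 members the rise was 1 or more on the log2 scale, which 1.31% of all genes reached with a call, and 0 members fell by that much with a call, against 0.572% of all genes. The count of members that rose became 16, 15 and 15 when control arrays 1, 2 and 3 were left out in turn. It became 14, 16 and 16 when PIK3CA shRNA arrays 1, 2 and 3 were left out. The count that fell was 2 or 3 in each of these. The share of all genes called without each array is not given here.

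**Figure D1:**
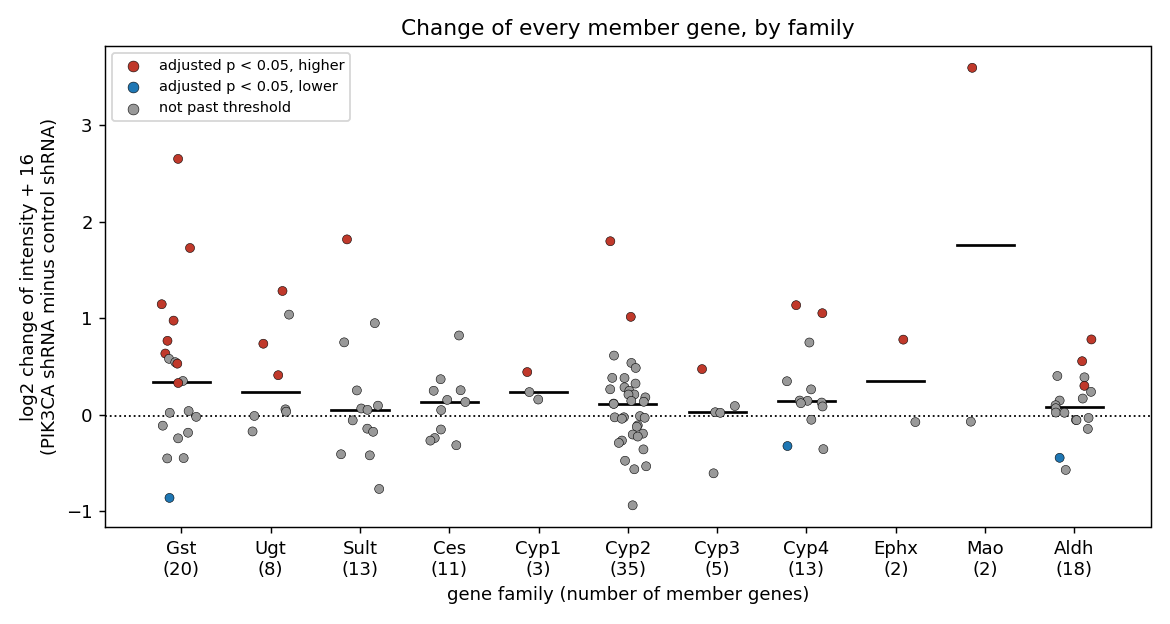
Each point is 1 of the 130 member genes, placed by family on the x axis and by its change in log2(intensity + 16) on the y axis, positive where PIK3CA shRNA cells were higher, with bars for family medians and a dotted line for the median of all genes. Calls that were higher are most numerous in the Gst family (8 of 20), and Maob, at 3.59, is the highest point.

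Most members were dim in this line. Only 27 of 130 lay above the median brightness of all genes by their mean over all 6 arrays, and 20 were below the pseudocount in both groups. The summed intensity of the 130 members was 52700.1 to 53659 on the control arrays and 61046 to 62683 on the PIK3CA shRNA arrays, without overlap.

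**Figure D2:**
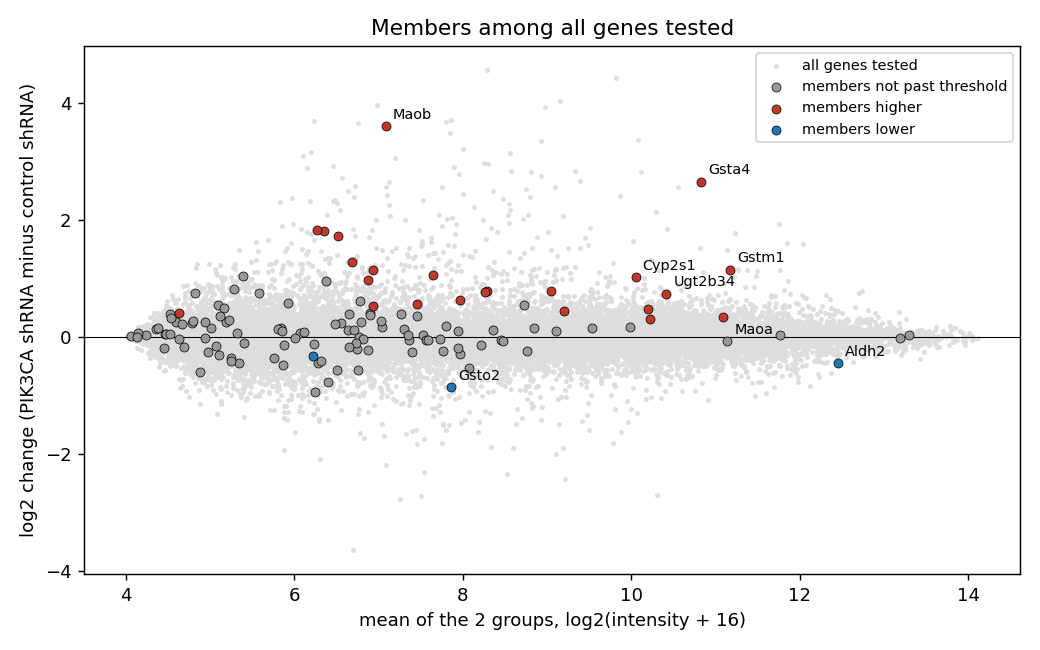
Each gene is placed by the mean of its 2 group levels in log2(intensity + 16) on the x axis and by its log2 change on the y axis, with all genes tested in light grey and members as outlined points, red where higher, blue where lower and dark grey where not called. Gsta4 (2.65) and Gstm1 (1.14) combine high brightness with large rises, Maob starts from a dim control level, and Aldh2 (-0.45) is the brightest member that fell.

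Glutathione S-transferases, which couple glutathione to electrophiles, were the family with the most calls. Of 20, 8 rose (40%) and 1 fell (5%), where 5.88% of all genes rose and 5.62% fell. The family median change was 0.34. Gsta4, the alpha-class enzyme known for conjugating the lipid peroxidation product 4-hydroxynonenal, read 709, 710.4 and 712 on the control arrays. On the PIK3CA shRNA arrays it read 4711, 4269 and 4662. The groups lay far apart, the means being 711 ± 1.14 and 4547 ± 242 (SD, n = 3 each), a 6.40-fold difference in intensity. This was a log2 change of 2.65 (SE 0.06, limma adjusted p = 0.000115). Gsta4 has 1 probe set on the array with its symbol alone.

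Gsta2, another alpha-class gene, was dimmer and also rose. Its control arrays read 73.2, 68.3 and 61.6 and its PIK3CA shRNA arrays 150.2, 156 and 138, without overlap (log2 change 0.97, limma adjusted p = 0.00263). Gsta3, of the same class, read 30.2 ± 13.6 and 19.7 ± 18.6 (SD, n = 3 each) with overlapping arrays and was not called (log2 change -0.45, limma adjusted p = 0.546; it was named after its values were seen). Gsta2 is close in sequence to another alpha-class gene, and its reading can include that copy.

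The mu class, Gstm, forms a run of 7 measured genes next to each other on a chromosome, and 4 of them rose and 0 fell (5 and 0 at an unadjusted p under 0.05). Of all genes, 5.88% rose and 5.62% fell (12.7% and 13.2% at an unadjusted p under 0.05). Gstm1, the brightest rise of the run, read 1585, 1442 and 1585 in control and 3727, 3285 and 3247 in PIK3CA shRNA cells, a 2.22-fold difference (log2 change 1.14, SE 0.08, limma adjusted p = 0.00176). Gstm4 went from 220.3 ± 13.4 to 386 ± 35.1 and Gstm2 from 186 ± 22.1 to 297 ± 33.8 (SD, n = 3 each). Gstm5, the distant member of the class at the other end of the run, read 1935, 1972 and 1904 against 2471, 2347 and 2491, a smaller rise of 0.33 (limma adjusted p = 0.0222). Within the run, the call of Gstm2 was lost whichever array was left out, and that of Gstm5 with any array left out but PIK3CA shRNA replicate 2.

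The other genes of the run, named after their values were seen, were not called. Gstm3 read 338 ± 80.0 and 492 ± 59.1 (SD, n = 3 each), with every PIK3CA shRNA array above every control array and a change of 0.54 (limma adjusted p = 0.152). Gstm7 (-0.19) and Gstm6 (-0.45) overlapped between the groups. Mu-class genes are similar in sequence, and the Gstm1 probe set used is of a kind (suffix _x_at) that may bind related transcripts. The other 3 Gstm1 probe sets rose as well, by 0.83, 1.07 and 1.32 in the fit over all probe sets. The 10 tested non-member genes that flank the run, 5 on each side, had a median change of 0.07, with 3 higher and 0 lower. Of all genes, 5.88% rose and 5.62% fell.

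**Figure D3:**
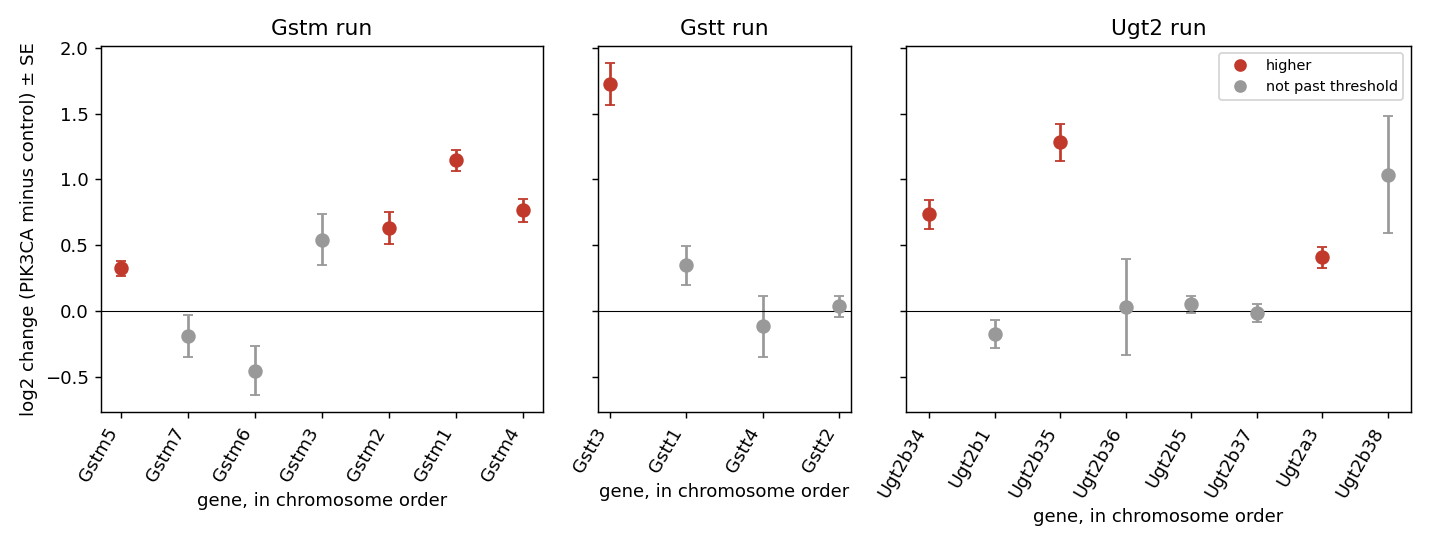
Log2 changes with their standard errors from limma are shown for the Gstm, Gstt and Ugt2 genes that follow each other among the tested genes, in chromosome order on the x axis without distances. Within each run, called genes in red (such as Gstm1 at 1.14 and Gstt3 at 1.73) stand beside grey genes that were not called.

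Promoter windows from RefSeq (GRCm38.p6, 250 bases before to 50 after a start) were matched for 103 of the 130 members, 18 of the 23 that rose and 1 of the 3 that fell. No window was matched for Maob and Gsta4, the members with the largest rises, or for Ephx2, Aldh3a1, Aldh7a1, Aldh2 and Cyp4a31. These genes were not searched. Both strands were searched for TGACNNNGC, the core of the antioxidant response element bound by NRF2, for GCGTG, the core bound by the aryl hydrocarbon receptor, and for GTAAACA, a forkhead FOXO core. The first can overlap the second. TGACNNNGC was in 2 of the 18 (11.1%) and in 14.0% of all genes with a window, GCGTG in 5 of the 18 (27.8%) and in 35.2% of all genes, and GTAAACA in 1 of the 18 (5.56%) and in 4.05% of all genes. A match is a description of letters only. The windows of Gstm2 and Gstm4 held 0 matches, as did those of the risen P450 genes Cyp2s1, Cyp3a13 and Cyp4b1.

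Printed here are 260 bases of 4 windows, 250 before and 10 after the start, 5′ to 3′ on the gene's strand. They belong to risen genes of the Gstm run and to P450 genes described next. All 4 hold a match, so they do not stand for the risen members as a whole. Capitals mark the matches. That of Gstm5 (chr3:107895604-107895863, plus strand) holds TGACNNNGC 42 bases before the start, overlapped by a GCGTG match on the other strand, and a further GCGTG match upstream. The first of the windows of Gstm1 (chr3:108017964-108018223, minus strand) and that of Cyp1b1 (chr17:79715052-79715311, minus strand) each hold 1 GCGTG match, 76 bases before the start. That of Cyp2c65 (chr19:39060756-39061015, plus strand) holds TGACNNNGC on the other strand, from 8 bases before the start.
Gstm5: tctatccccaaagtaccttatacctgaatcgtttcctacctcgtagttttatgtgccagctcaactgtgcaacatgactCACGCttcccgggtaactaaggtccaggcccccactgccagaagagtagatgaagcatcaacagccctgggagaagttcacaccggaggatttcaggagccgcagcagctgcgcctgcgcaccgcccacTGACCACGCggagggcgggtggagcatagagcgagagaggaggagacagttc
Gstm1: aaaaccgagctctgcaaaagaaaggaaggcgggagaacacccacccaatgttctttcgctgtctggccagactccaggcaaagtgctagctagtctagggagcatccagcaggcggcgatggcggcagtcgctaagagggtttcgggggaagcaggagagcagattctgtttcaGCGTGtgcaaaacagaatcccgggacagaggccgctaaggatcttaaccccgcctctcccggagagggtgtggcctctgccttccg
Cyp1b1: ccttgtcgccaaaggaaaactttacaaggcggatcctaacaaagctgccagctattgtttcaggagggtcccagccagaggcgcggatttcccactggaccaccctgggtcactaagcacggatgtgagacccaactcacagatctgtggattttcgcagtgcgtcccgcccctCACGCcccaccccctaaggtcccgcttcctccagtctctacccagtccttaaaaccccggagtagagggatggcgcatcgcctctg
Cyp2c65: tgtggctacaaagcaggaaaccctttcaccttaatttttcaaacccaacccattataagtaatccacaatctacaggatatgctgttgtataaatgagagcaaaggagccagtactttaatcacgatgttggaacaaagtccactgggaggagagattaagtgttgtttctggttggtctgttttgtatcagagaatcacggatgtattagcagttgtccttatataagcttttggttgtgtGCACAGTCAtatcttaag

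Gstt3, a theta-class transferase, rose from a dim level. It read 26.5, 37.4 and 39.3 on the control arrays and 182, 144 and 128 on the PIK3CA shRNA arrays, without overlap (log2 change 1.73, SE 0.16, limma adjusted p = 0.00351). Its measured neighbours Gstt1, Gstt4 and Gstt2 were not called and had changes of 0.35, -0.11 and 0.04. Gstk1, the kappa-class enzyme of mitochondria and peroxisomes, rose by 0.53 from 86.4 ± 15.3 to 131 ± 5.46 (SD, n = 3 each). Its adjusted p of 0.0442 in limma lay near the threshold, and the call was lost in 11 of 16 alternatives, 5 of them with 1 array left out (any but control replicate 1).

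The transferases with the brightest probe sets were not called. Gstp1, the pi-class enzyme that many carcinomas express highly, read 9452 ± 291 in control and 9301 ± 164 in PIK3CA shRNA cells (SD, n = 3 each; log2 change -0.02, SE 0.06, limma adjusted p = 0.847). Gsto1, an omega-class enzyme with thiol transferase activity, read 9988 ± 98.6 and 10125 ± 331 (SD, n = 3 each; log2 change 0.02, SE 0.06, limma adjusted p = 0.872). Gsto2, which lies next to Gsto1 and acts in dehydroascorbate reduction, was the only transferase that fell. Its arrays read 281, 322 and 290.2 in control and 149, 169.5 and 151 in PIK3CA shRNA cells, 52.6% of control (log2 change -0.86, SE 0.08, limma adjusted p = 0.00381).

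UDP-glucuronosyltransferases add glucuronic acid to bile acids, steroids, bilirubin and drugs. Of 8 measured family 2 genes, 3 rose (37.5%) and 0 fell, where 5.88% of all genes rose and 5.62% fell. Ugt2b34, the brightest of them, read 1191, 1029 and 923 in control and 1810.3, 1773 and 1655 in PIK3CA shRNA cells (log2 change 0.73, SE 0.11, limma adjusted p = 0.0136). Its other probe set also rose, from 462 to 969.9 in mean intensity and by 1.04 in the fit over all probe sets. The call over genes was lost without control replicate 2, PIK3CA shRNA replicate 1 or PIK3CA shRNA replicate 2. Ugt2b35 rose by 1.28, from 53.5, 49.3 and 46.1 to 179.6, 125 and 130.4 (limma adjusted p = 0.006).

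Ugt2a3 was called at intensities below the pseudocount in both groups (5.64 ± 1.22 and 12.7 ± 1.72; SD, n = 3 each; limma adjusted p = 0.0283), and nothing in the table tells whether such a level is above background. Its call was lost in 11 of 16 alternatives, among them each of the 6 with an array left out. Ugt2b36, the second brightest, read 148 ± 60.1 and 147 ± 49.4 (SD, n = 3 each) and was not called (log2 change 0.03, limma adjusted p = 0.971). Genes of this locus are similar in sequence and may share signal.

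Sulfotransferases and carboxylesterases were dim. Of 13 sulfotransferase genes, 1 rose (7.69%) and 0 fell (2 and 0 at an unadjusted p under 0.05), which is near the 5.88% of all genes that rose, and 0 were above the median brightness of all genes. Sult1c2, a phenol-type sulfotransferase, read 12.1, 57.8 and 12.6 in control and 132, 103 and 132 in PIK3CA shRNA cells. Control replicate 2 lay above the other control arrays, and all control arrays lay below the PIK3CA shRNA arrays (log2 change 1.82, SE 0.40, limma adjusted p = 0.0447). The call was lost in 9 of 16 alternatives, 5 of them with 1 array left out (any but control replicate 2), and the change ranged from 1.06 to 2.48 over them. Sult5a1 (-0.06) and Sult2b1 (-0.77), the brightest sulfotransferase genes by their mean over all arrays, were not called (limma adjusted p = 0.860 and 0.199).

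The carboxylesterases hydrolyse esters and amides of drugs and lipids, and 0 of 11 rose or fell in limma (2 higher and 0 lower at an unadjusted p under 0.05, where 12.7% of all genes were higher, so that the count is near the background). Ces2g was nearest to the threshold, at 89.7 ± 9.86 and 120.0 ± 6.66 (SD, n = 3 each; log2 change 0.37, limma adjusted p = 0.0577). Ces1h, the brightest of the family, read 220.0 ± 12.7 and 185 ± 36.3 (SD, n = 3 each; log2 change -0.24, limma adjusted p = 0.348).

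Of 56 P450 genes of families 1 to 4, 6 rose (10.7%) and 1 fell (1.79%), where 5.88% of all genes rose and 5.62% fell, and 6 of the 56 were above the median brightness of all genes. Cyp2s1, an extrahepatic P450 of epithelia, was the brightest with a rise of at least 1. It read 708, 681 and 809 in control and 1504, 1492 and 1476 in PIK3CA shRNA cells, a 2.04-fold difference (log2 change 1.01, SE 0.08, limma adjusted p = 0.00235). Cyp3a13, of the drug-metabolising family 3, read 944, 1001 and 1002 against 1427, 1338 and 1341 (log2 change 0.47, SE 0.06, limma adjusted p = 0.00984). Cyp1b1, a P450 of the aryl hydrocarbon receptor pathway that oxidises oestrogens and polycyclic hydrocarbons, read 479, 502 and 495 against 691, 658 and 672 (log2 change 0.44, SE 0.06, limma adjusted p = 0.00923).

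The remaining P450 rises were in dimmer genes. Cyp2c65, an intestinal member of the arachidonate-oxidising Cyp2c group, read 39.3, 19.6 and 26.0 in control and 146, 118 and 143 in PIK3CA shRNA cells (log2 change 1.80, SE 0.18, limma adjusted p = 0.00435). It was the only one called of 10 measured Cyp2c genes that follow each other on the chromosome, where 11.5% of all genes were called. Its probe set is of a kind (suffix _s_at) that may bind several transcripts. Cyp4v3, a fatty acid hydroxylase, rose from 67.1 ± 14.5 to 166 ± 25.2, and Cyp4b1, a lung-type P450, from 123 ± 28.6 to 272 ± 51.6 (SD, n = 3 each; log2 changes 1.13 and 1.05, limma adjusted p = 0.0128 and 0.0291). The call of Cyp4b1 was lost with any 1 array left out but control replicate 2, and that of Cyp4v3 without control replicate 3 or PIK3CA shRNA replicate 3.

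Cyp4a31, a member of the fatty acid hydroxylase group Cyp4a, was the P450 gene that fell, from 68.0 ± 4.91 to 51.1 ± 3.44 (SD, n = 3 each; log2 change -0.33, limma adjusted p = 0.0486). The call was lost in 12 of 16 alternatives, among them each of the 6 with an array left out. In family 1, Cyp1a1, the classical target of the aryl hydrocarbon receptor, read 119, 95.6 and 111 in control and 158, 97.0 and 119 in PIK3CA shRNA cells. Its arrays overlapped (log2 change 0.16, SE 0.17, limma adjusted p = 0.643). Cyp3a11 (0.09), Cyp4f16 (0.15), Cyp4f13 (0.12) and Cyp2c70 (-0.54), among the brightest of their families, were not called, with limma adjusted p from 0.0638 for Cyp2c70 to 0.668 for Cyp3a11. The difference in change between Cyp1b1 and Cyp1a1 was not tested.

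**Figure D4:**
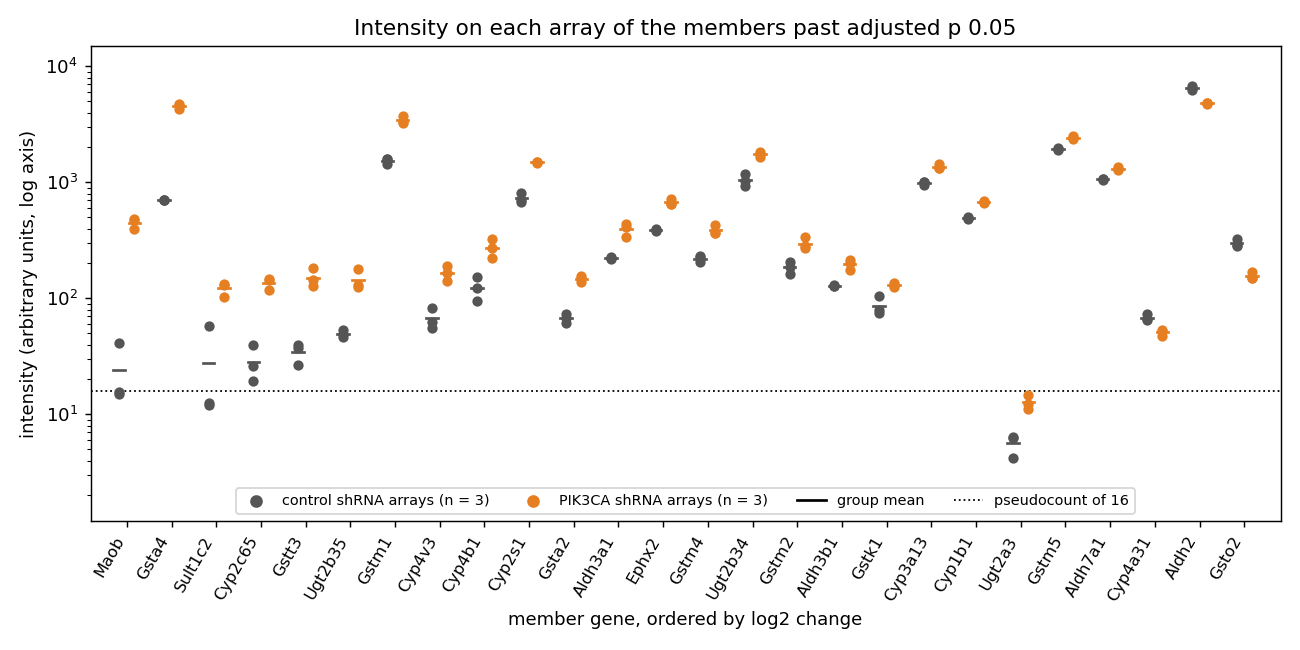
Intensity on a log axis is shown for each array of the 26 called members, ordered by log2 change, with control arrays in grey, PIK3CA shRNA arrays in orange, bars for group means and a dotted line at the pseudocount of 16. No called member has overlapping groups, and the control arrays of Maob and Sult1c2 include values below the dotted line, as do all arrays of Ugt2a3.

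The monoamine oxidases, enzymes of the outer mitochondrial membrane that deaminate neurotransmitters and dietary amines, are neighbours on the X chromosome, and of them Maob was called; the difference between their changes was not tested. Maob, which had the largest change of the 130 members, read 15.5, 41.3 and 15.1 on the control arrays and 479, 396 and 469 on the PIK3CA shRNA arrays. Control replicate 2 was again above the other controls, and the groups lay far apart (log2 change 3.59, SE 0.26, limma adjusted p = 0.00177). The change was 4.32 at its highest among the alternative settings and 2.55 at its lowest, the latter with a pseudocount of 64. Maoa read 2261, 2299 and 2331 in control and 2102, 2294 and 2156 in PIK3CA shRNA cells, with overlapping arrays (log2 change -0.07, SE 0.06, limma adjusted p = 0.525). The other Maoa probe set read -0.05 in the fit over all probe sets. The 10 tested non-member genes that flank this pair had a median change of -0.01, with a range from -0.77 to 0.13.

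The epoxide hydrolases add water to epoxides. Ephx2, the soluble enzyme that acts on fatty acid epoxides, read 387, 384 and 393 in control and 722, 657 and 653 in PIK3CA shRNA cells, a 1.74-fold difference (log2 change 0.78, SE 0.06, limma adjusted p = 0.00260). Ephx1, the microsomal enzyme for xenobiotic epoxides, read 382, 335 and 333 against 386, 312 and 299. Its groups overlapped (log2 change -0.08, SE 0.12, limma adjusted p = 0.742).

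Aldehyde dehydrogenases oxidise aldehydes to acids. Of 18, 3 rose (16.7%) and 1 fell (5.56%), where 5.88% of all genes rose and 5.62% fell. Aldh2, the mitochondrial acetaldehyde dehydrogenase and the brightest of the family, read 6823, 6519 and 6292 in control and 4792, 4773 and 4814 in PIK3CA shRNA cells. The PIK3CA shRNA arrays were all lower, at 73.2% of control (log2 change -0.45, SE 0.06, limma adjusted p = 0.00984). The other 4 Aldh2 probe sets had negative changes too, between -0.86 and -0.17 in the fit over all probe sets, 1 of them past the threshold there.

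The rises were in Aldh3a1 and Aldh3b1, family 3 enzymes that oxidise medium-chain and lipid-derived aldehydes, and in Aldh7a1, which acts in lysine breakdown. Aldh3a1 read 226, 218 and 221 against 440.1, 409.6 and 335 (log2 change 0.78, SE 0.11, limma adjusted p = 0.0119). Aldh3b1 went from 129 ± 1.77 to 197 ± 20.9 and Aldh7a1 from 1063 ± 10.7 to 1311 ± 45.7 (SD, n = 3 each; log2 changes 0.55 and 0.30). The call of Aldh7a1 was lost whichever array was left out, that of Aldh3b1 with any but PIK3CA shRNA replicate 3, and that of Aldh3a1 without control replicate 2. Aldh9a1, the second brightest of the family, which oxidises aminoaldehydes, read 3441 ± 38.1 and 3495 ± 112 (SD, n = 3 each; log2 change 0.02, limma adjusted p = 0.854). Aldh1a1, the retinaldehyde dehydrogenase often used as a stem cell marker, read 689 ± 58.1 and 766 ± 95.6 (SD, n = 3 each; log2 change 0.15, limma adjusted p = 0.510; named after its values were seen).

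At the level of probe sets, where limma was fitted over 45037 probe sets, 22 of 169 member probe sets rose and 3 fell, where 2.64% of all probe sets rose and 2.3% fell (4.94% in either direction). Of the 26 called genes, 20 kept their call with the same probe set in that fit, and Aldh7a1, Cyp4a31, Gstk1, Gstm5, Sult1c2 and Ugt2a3 did not. Of the 26, 7 had more than 1 probe set. Another probe set was called in the same direction in 3 of these 7 (Gstm1, Ugt2b34 and Aldh2) and in the opposite direction in 0. Among the other probe sets of these genes, 1 of Cyp1b1 had the opposite sign, at -0.11, and was not called (limma adjusted p = 0.625). Neither of the 2 other probe sets of Aldh7a1 shared the positive sign of its call. They differed little between the groups, at -0.02 for the larger of the differences. With the mean of all probe sets of a gene, Aldh7a1 moved from 0.30 to 0.09, Cyp1b1 from 0.44 to 0.20 and Cyp4a31 from -0.33 to -0.18, each losing its call. Gstk1 has 1 probe set, so its change was the same there. It also lost its call in that fit, from a limma adjusted p of 0.0442 in the main fit.

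Genes that work beside the members were read from lists, of which a few called genes are named. Of 16 measured regulators, 4 rose (25%) and 1 fell (6.25%), where 5.88% of all genes rose and 5.62% fell. Their median change was 0.11. Ahr, the aryl hydrocarbon receptor gene, read 1822, 2087 and 2355 in control and 3631, 3819 and 3749 in PIK3CA shRNA cells (log2 change 0.84, limma adjusted p = 0.00881). Hnf4a, a nuclear receptor of liver and gut, rose by 1.14, and Bach1, a repressor at antioxidant response elements, by 0.54. Nfe2l2, which encodes NRF2, rose by 0.28 (limma adjusted p = 0.0300). Mafk was the regulator that fell (log2 change -0.31, limma adjusted p = 0.0360). The xenobiotic receptor genes were dim: Nr1i2 read 63.9 and 70.3 and Nr1i3 10.2 and 10.2 as means of control and PIK3CA shRNA arrays.

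Among 26 other oxidoreductases and electron carriers, 4 rose (15.4%) and 2 fell (7.69%), with a median change of -0.04. Of all genes, 5.88% rose and 5.62% fell, so the count that fell is near the background. Cyb5a, which passes electrons to P450 enzymes, rose by 0.72, and Akr1c14, an aldo-keto reductase of steroids, by 1.23. Cyb5r3, a cytochrome b5 reductase gene, fell (log2 change -0.31, limma adjusted p = 0.0289). Adh7, the alcohol and retinol dehydrogenase of upper gut epithelium, fell by 1.04 on the log2 scale, from 1911, 1869 and 1823 to 901, 931 and 861. Of 19 genes of cosubstrate supply and other transferases, 5 rose (26.3%) and 0 fell (8 and 1 at an unadjusted p under 0.05), with a median change of 0.06. Those that rose included the microsomal transferase gene Mgst1 (0.70), the glutathione synthetase gene Gss (0.68) and the thiopurine methyltransferase gene Tpmt (0.56).

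Of 19 transporter genes, 5 rose (26.3%) and 0 fell (7 and 1 at an unadjusted p under 0.05), where 5.88% of all genes rose and 5.62% fell. Their median change was 0.22. Abcg2, an efflux pump for sulfate conjugates and many drugs, read 109.7, 119.7 and 113.5 in control and 614.6, 544.4 and 620.2 in PIK3CA shRNA cells (log2 change 2.22, limma adjusted p = 0.000163). The organic anion transporter gene Slco4a1 rose by 1.44 and the conjugate pump gene Abcc4 by 1.13.

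Some markers of gut and liver rose, and most of the liver list was not called. Of 10 enterocyte markers, 4 rose (40%), 1 fell (10%) and 5 were not called (median change 0.27), where 5.88% of all genes rose and 5.62% fell. Their summed intensity was 1079 to 1121 on control arrays and 9073 to 9285 on PIK3CA shRNA arrays. Lgals4 (4.42), Cdh17 (3.36), Cdx2 (2.96) and Vil1 (2.57) rose and Fabp2 fell by 1.38 on the log2 scale, while Cdx1 stayed near 0 at 2.14 and 2.60 in mean intensity. The enterocyte sums were carried mostly by Lgals4, from 181 to 4173, and Cdh17, from 323 to 3443. Of 11 hepatocyte markers, 8 were not called, 3 rose (27.3%) and 0 fell (3 and 1 at an unadjusted p under 0.05). Their median change was -0.03, with 6 of 11 changes negative. Those that rose were Apob (2.96), Apoa1 (1.51) and Ttr (1.06). The summed intensity was 785 to 831 in control and 1598 to 1745 in PIK3CA shRNA cells, mostly through Apob, from 93.2 to 832, and Alb read 89.1 and 132 in mean intensity without a call. Several members are known from these tissues, and the part of either marker group in the members' changes was not tested. In bulk RNA, fewer cells of a type and less RNA per cell cannot be told apart.

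Of 9 leukocyte markers, 2 rose (22.2%) and 0 fell (2 and 0 at an unadjusted p under 0.05), where 5.88% of all genes rose and 5.62% fell. The 2 that rose were Fcgr3 (1.47) and Cd14 (0.65). The summed intensity was 1857 to 2063 in control and 2559.6 to 3010.5 in PIK3CA shRNA cells, with Ptprc at 63.2 and 58.6. Of 10 fibroblast markers, 0 rose and 1 fell (10%), Dcn by 0.75 on the log2 scale (0 and 2 at an unadjusted p under 0.05). Of 7 endothelial markers 0 rose and 0 fell in limma (1 and 1 at an unadjusted p under 0.05). Their part in the members' changes was not tested.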

How the data were processed

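The table held 1 linear intensity per probe set and array, as deposited by the authors. The arrays shared their lowest and highest values, and their medians differed little; how the values were normalized was not given in the sources used here. Labelling followed the Affymetrix protocol per the labels' protocols. Of 45101 probe sets, 64 controls were left out. Probe sets were named from the platform annotation (34958 with 1 symbol, 932 with several, 9211 with none), with symbols checked against RefSeq.

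Arrays were scaled to a common median of 134.4, transformed as log2(intensity + 16) and tested by lmFit and eBayes of limma 3.58.1 (R 4.3.3; Benjamini-Hochberg adjustment, threshold 0.05) over 18193 genes and again over 45037 probe sets. The exact two-sided permutation p for 3 against 3 arrays cannot go below 0.1. Members and gene lists were chosen with earlier results of these data known. Named were the called members, those listed singly in the rule (Maoa, Maob, Ephx1, Ephx2), the 2 brightest of each family and up to 3 called genes per list with the smallest adjusted p. Gstm3, Gstm6, Gstm7, Gsta3, Gstt1, Gstt2, Gstt4, Aldh1a1 and, in the lists, markers and receptors without a call were named after their values were seen. The same holds for Vil1, Fabp2, Nfe2l2, Mafk and Cyb5r3. Same-numbered arrays did not deviate together (correlations of 0.05, -0.02 and -0.02), so replicate numbers were not treated as pairs. Alternatives changed the pseudocount, normalization, filter, probe set rule, prior, block and threshold, and left out each array. In a test on simulated data of 18193 genes, 13.4%, 61.2% and 81.8% of genes changed by 0.5, 1 and 2 on the log2 scale were recovered.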

Additional observations from a re-analysis of the deposited data

How the results depend on the processing

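The count of member genes that rose (23) was 11 of 27 tested with dim genes left out (by the mean over all arrays, which a rise helps a gene to pass), 12 at an adjusted p of 0.01, 9 with the replicate number as a block and 14 to 16 when each array was left out in turn. The count that fell (3) was 1 with the replicate block and 2 to 3 with an array left out. Member probe sets that rose (22) were 3 with the replicate block, 10 at an adjusted p of 0.01 and 10 to 14 with an array left out. Those that fell (3) were 5 with a pseudocount of 64, 7 with dim probe sets left out, 6 with a trend and robust prior, 0 with the replicate block in limma (12 at an unadjusted p under 0.05), 1 at an adjusted p of 0.01 and 1 to 2 with an array left out. The labels do not say whether same-numbered arrays belong together, and correlations over 3 arrays a group cannot settle it. The cause of these differences was not tested. The other settings kept each count within 1.5 times. In the main fit, 5.88% of all genes rose and 5.62% fell, as did 2.64% and 2.3% of all probe sets. Of all genes above the median brightness, 8.72% rose and 8.86% fell in the main fit. Shares of all features called under each alternative are not given here, so these counts do not tell losses particular to the members from general ones. No called member reversed its direction under any setting run. Sign changes of named members called neither in the main fit nor under a setting were not counted. Calls of Cyp2c65, Cyp2s1, Ephx2, Gsta4, Gstm1, Gsta2, Gsto2, Maob and Ugt2b35 held under all of them, while calls were lost for Cyp4a31 in 12 of 16, Gstk1 and Ugt2a3 in 11 of 16, Aldh7a1 in 10 of 17, Sult1c2 in 9 of 16, Gstm2 in 8 of 16, Gstm5 in 8 of 17, Cyp4b1 and Aldh3b1 in 7 of 16, and Ugt2b34 in 5 of 17. The other 7 called members lost theirs in 1 to 3. Levels near or below the pseudocount cannot be told from background without detection calls.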
